A study of Mus musculus with 6 samples.

Results

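The genes described here encode the receptors with which a B cell senses lipopolysaccharide (LPS) and nucleic acids, together with their partners and adaptors. They are *Tlr4*, *Ly96*, *Cd14*, *Cd180*, *Ly86*, *Tlr7*, *Tlr9*, *Myd88*, *Ticam1* and *Irak4*, a list of 10 genes chosen by function from the 54446 genes of the deposited table. Naive B cells were taken by negative selection from the spleens of mice of a mixed C57BL/6J X CBA strain, either *Tent5c* KO or WT littermates, and RNA was sequenced after 7 days in culture with LPS at 20 µg/ml and IL-4 at 20 ng/ml. The 6 libraries formed 3 littermate pairs of 1 KO and 1 WT animal, numbered 1 to 3, and the labels call a pair a batch. *Tent5c*, which encodes a cytoplasmic poly(A) polymerase, was mutated in the germline, so the KO animals carry the mutation in all cells and not in B cells alone. All 6 libraries were treated with LPS, so the values are levels under LPS, and a response to LPS cannot be measured here.

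TLR4 binds LPS together with the small secreted protein MD-2, the product of *Ly96*, and CD14 hands LPS to this pair on myeloid cells. RP105, the product of *Cd180*, resembles the outer part of TLR4 but has no signalling domain inside the cell, is bound by MD-1, the product of *Ly86*, and is typical of mature B cells. TLR7 and TLR9 sense RNA and DNA in endosomes. MyD88 recruits the kinase IRAK4 to most TLRs, whereas TRIF, the product of *Ticam1*, serves TLR3 and the TLR4 taken up into endosomes.

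Promoter sequences from RefSeq (GRCm38.p6), from 250 bases before to 50 bases after a start site, were matched for 6 of the 10 genes, namely *Cd180*, *Ly86*, *Tlr9*, *Myd88*, *Ticam1* and *Irak4*. They were searched on both strands for 4 motifs of factors known in B cells and innate immunity, and 3 of the 6 genes held a match. The share of all promoters that hold any of the 4 motifs is not given, so this count is a description only. The octamer ATGCAAAT, which is also a hallmark of Ig promoters, stood 72 bases before the start of *Tlr9* and in 1.74% of the 32851 promoters of this length. GAGGAA, a core that PU.1 can bind, was in the promoters of *Tlr9* and *Ticam1* and in 28.3% of all promoters. A core of interferon-stimulated elements, written as GAAA, any 2 bases and GAAA, was in that of *Myd88* and in 3.44% of all promoters. CCCNNGGG, a core of EBF1 sites, was in none of the 6 promoters and in 13.7% of all. The matches before the RefSeq start site are shown in the direction of the gene to make the motifs visible, with the motif in capitals. They lie at chr9:106222515-106222544 and chr9:106222474-106222503 on the plus strand, and at chr17:56276780-56276809 and chr9:119340039-119340068 on the minus strand, in the order shown. The *Myd88* match lies within the gene span given below, which begins farther upstream than this RefSeq start.
*Tlr9*, octamer: gccatctgactATGCAAATgatgtgtgact
*Tlr9*, PU.1 core: ggagagtggaaaGAGGAAggggttgagggg
*Ticam1*, PU.1 core: agacccggaaggGAGGAAggggcggaaccg
*Myd88*, interferon-stimulated core: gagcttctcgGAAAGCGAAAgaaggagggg

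The libraries held 5393558 to 6793520 fragments on genes. Values are counts divided by the DESeq2 size factor of their library, called normalized counts in the following, and 3 fragments are worth between 2.72 and 3.61 of them. A filter on the mean (10 normalized counts or more) left 9 of the 10 genes for the test of KO against WT and removed *Cd14*. The transcript of *Tent5c* did not separate the genotypes, with 1993, 993 and 1170.4 normalized counts in the KO libraries of pairs 1, 2 and 3 against 1255, 767 and 1585 in WT, so it does not check the labels. B cell genes were abundant in every library, and the 8 B cell markers summed to between 28556 and 33975 normalized counts. Of 12 monocyte and macrophage markers, *Fcgr1*, *C1qa* and *C1qc* were at 0 in all 6 libraries and *Csf1r*, which defines the lineage, was at no more than 4.82. Their sum was 66.7 to 162 in KO and 117 to 173 in WT, most of it *Lyz2*, *Cd68* and *Adgre1*. Of 6 neutrophil markers 4 were at 0, with sums of 15.3 to 51.0 in KO and 20.9 to 78.3 in WT, and the 8 T and NK cell markers summed to 10.5 to 49.4 and the 6 erythroid markers to no more than 4.72 over all libraries.

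Of the LPS receptor genes, *Tlr4* and *Ly96* were expressed and *Cd14* was at the limit of detection. *Tlr4* (ENSMUSG00000039005, chromosome 4 of GRCm38, 66827584 to 66930284) had 278, 242 and 269.7 normalized counts in the KO libraries of pairs 1, 2 and 3 and 329.6, 248 and 242 in the WT libraries. The WT library of pair 1 stood above the other 5, which lay close together, and the groups overlapped. *Ly96* (ENSMUSG00000025779, chromosome 1, 16688051 to 16709611) had 144, 109.6 and 131 in KO and 112, 120.2 and 137 in WT, again with full overlap. *Cd14* (ENSMUSG00000051439, chromosome 18, 36725067 to 36726798) was represented by 10 fragments over all 6 libraries, with 1, 0 and 3 in KO and 2, 1 and 3 in WT. No library exceeded 3 fragments, which is the limit that a count of 0 allows. *Cd14* was thus seen only in traces in both genotypes, and no fold change is given. In bulk RNA, fewer cells that express a gene and less RNA per cell cannot be told apart.

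Per kilobase of exon, *Cd180* was above *Tlr4* and *Ly86* above *Ly96* in every library. *Cd180* (ENSMUSG00000021624, chromosome 13, 102693558 to 102739629) had 376, 498 and 399.5 normalized counts in KO and 365, 457 and 268 in WT. It was higher in the KO library of all 3 pairs, but the WT library of pair 3 alone lay well below the others and the groups overlapped. *Ly86* (ENSMUSG00000021423, chromosome 13, 37345208 to 37419036) had 898, 889 and 864 in KO and 1018, 1015 and 805 in WT. The 3 KO values lay together and within the range of the WT values.

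Of the nucleic acid sensors, *Tlr7* was 11.05 times above *Tlr9* per kilobase of exon. *Tlr7* (ENSMUSG00000044583, chromosome X, 167304929 to 167330558) had 1199.5, 1103 and 1097 normalized counts in KO and 1261, 1162 and 1181 in WT, lower in KO in all 3 pairs by KO/WT ratios of 0.951, 0.949 and 0.929. *Tlr9* (ENSMUSG00000045322, chromosome 9, 106222598 to 106226883) had 85.9, 89.6 and 103 in KO and 87.8, 115 and 68.6 in WT, so that the direction differed between pairs. *Tlr7* is X-linked, and the pairs differed in sex-linked transcripts. *Xist*, the RNA of the inactive X, had 11637 and 11609.7 normalized counts in the KO and WT libraries of pair 2 and no more than 6.61 in the other 4, whereas *Ddx3y* from the Y chromosome was at 0 in pair 2 and between 1285 and 1477 in the others. The *Tlr7* values of pair 2 lay within the range of the other pairs. With 1 such pair, sex and batch cannot be told apart.

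The adaptors were present at moderate levels. *Myd88* (ENSMUSG00000032508, chromosome 9, 119335934 to 119341411) had 127, 153 and 193 normalized counts in KO and 123, 166 and 132 in WT, and its highest value was the KO library of pair 3. *Ticam1* (ENSMUSG00000047123, chromosome 17, 56269319 to 56276786) had 213, 160.1 and 214 in KO and 214, 143 and 218 in WT, so that both libraries of pair 2 were below the other 4. *Irak4* (ENSMUSG00000059883, chromosome 15, 94543643 to 94581815) had 121, 129 and 123 in KO and 126, 139 and 132 in WT, and its KO/WT ratios were 0.962, 0.925 and 0.932, below 1 in each pair. *Cd180*, *Myd88* and *Irak4* overlap genes on the opposite strand (*Mast4*, *Acaa1a* and *Twf1*). Fragments were counted by strand. *Myd88* also overlaps *Slc22a14* on its own strand, which had 0 fragments.

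**Figure D1:**
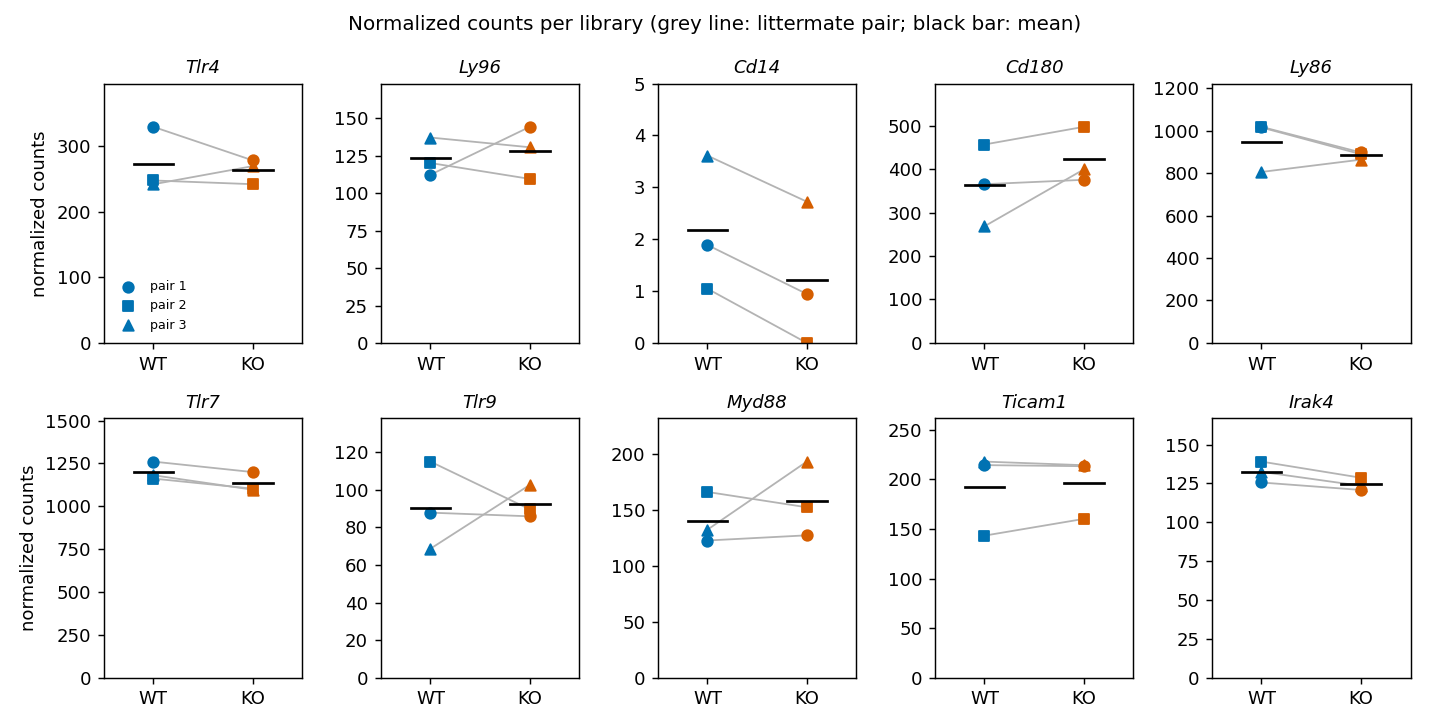
Normalized counts of the 10 sensing genes in each library, with WT in blue and KO in orange. Symbols mark the littermate pair, grey lines join a pair and black bars are group means (n = 3). KO and WT overlap for every gene, *Cd180* was higher in KO in all 3 pairs, *Tlr7* and *Irak4* were lower in all 3, and *Cd14* stayed at or below 3 fragments in every library.

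Levels of different genes were compared per kilobase of annotated exon. By this measure *Tlr7* came first with 286 ± 15.1 normalized counts per kilobase (SD, n = 6 libraries) and *Ly86* next with 252 ± 23.5. *Ly96* followed with 123 ± 13.7 and *Cd180* with 87.4 ± 17.6. *Ticam1* had 64.8 ± 11.1, *Myd88* 57.9 ± 10.6 and *Tlr4* 48.3 ± 6.05 normalized counts per kilobase. *Tlr9* with 26.3 ± 4.54 and *Irak4* with 25.6 ± 1.32 came before *Cd14* with 0.983. The ranges over libraries did not overlap between *Ly86* and *Ly96*, between *Tlr4* and *Tlr9*, and between *Irak4* and *Cd14*, and overlapped between all other neighbours. *Ticam1* was above *Myd88* in only 3 of 6 libraries and *Myd88* above *Tlr4* in 4, so the order within these 3 genes is not resolved. The median gene tested had 45.0 normalized counts per kilobase, so *Tlr4* stood near the middle, above 52.1% of the genes tested, and *Tlr7* and *Ly86* above 90.5% and 89.3%.

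The place of *Ly86* depends on its length. Its annotated exons include a long transcript of a single exon, and per kilobase of the longest protein-coding transcript, a measure added after the values were seen, *Ly86* had 807 ± 75.1 (SD, n = 6 libraries) and stood above *Tlr7* with 299 ± 15.9. On that scale *Cd180* had 149 and *Tlr4* 65.8 ± 8.25. Per kilobase of annotated exon, *Cd180* exceeded *Tlr4* in every library, by 1.84 times on average (range 1.37 to 2.53), *Ly86* exceeded *Ly96* by 2.06 times (1.64 to 2.53) and *Tlr7* exceeded *Tlr9* by 11.05 times (8.54 to 14.5).

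**Figure D2:**
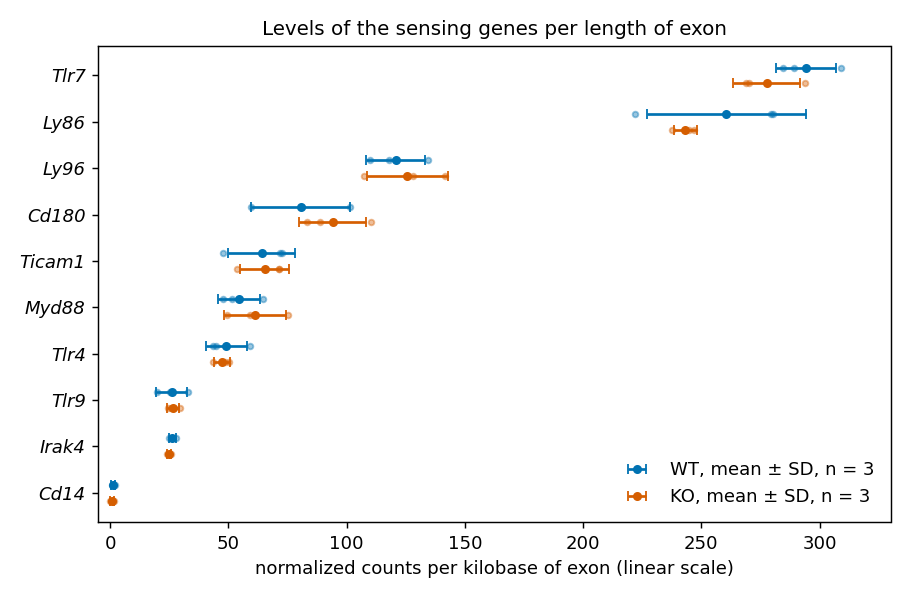
Level of each sensing gene in normalized counts per kilobase of annotated exon, on a linear axis from high to low. Large points and bars are the mean ± SD of 3 libraries of a genotype and small points are single libraries. *Tlr7* and *Ly86* lie between 221.8 and 309 over all libraries, *Tlr4* lies between 43.6 and 59.3, and *Cd14* lies at or below 2.09.

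Whether *Tent5c* KO changes these genes was asked in a limma model of genotype and pair, fitted to log2(normalized count + 1) of the 12322 genes that passed the filter. None of the 9 genes tested passed the threshold. The adjusted *p*-values lay between 0.970 and 0.989, and the lowest unadjusted one was that of *Cd180* (0.0785). Over all genes tested, 0 (0%) passed an adjusted *p* of 0.05 in limma and 0 (0%) in edgeR, with 579 (4.70%) and 568 (4.61%) at an unadjusted *p* under 0.05. In limma 3.03% of the genes were lower and 1.67% higher at that level, and 0 of the 9 sensing genes were. DESeq2 called 23 of 9894 (0.232%). None of these 23 was among the 9 sensing genes. The 95% interval of the log2 fold change lay within −0.5 and 0.5 for 6 of the 9 genes, as for 62.1% of all genes tested, the exceptions being *Cd180*, *Myd88* and *Tlr9*. The log2 fold change (KO minus WT) of *Tlr4* was −0.04 (standard error 0.10, 95% interval −0.29 to 0.21), which corresponds to a ratio between 0.818 and 1.16. That of *Ly96* was 0.05 (0.14), with an interval of −0.28 to 0.39. *Cd180* had a log2 fold change of 0.24 (0.12) and an interval of −0.04 to 0.53, or a ratio of 0.975 to 1.44. *Ly86* had one of −0.09 (0.08), from −0.28 to 0.10.

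Of the 9 genes *Tlr7* had the narrowest interval, −0.23 to 0.06 around a log2 fold change of −0.08 (0.06), and *Tlr9* the widest, −0.41 to 0.54 around 0.06 (0.20). *Myd88* had a log2 fold change of 0.16 (0.15), *Ticam1* one of 0.04 (0.10) and *Irak4* one of −0.09 (0.11). *Tlr7* and *Irak4* were lower in KO in all 3 pairs, as were 13.1% of all genes tested, and *Cd180* was higher in all 3, as were 11.7%. The groups overlapped for each of the 9 genes, and did not overlap for 6.83% of all genes tested. The median log2 fold change of the 9 genes was 0.04, beside 0.00067 over all genes tested.

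**Figure D3:**
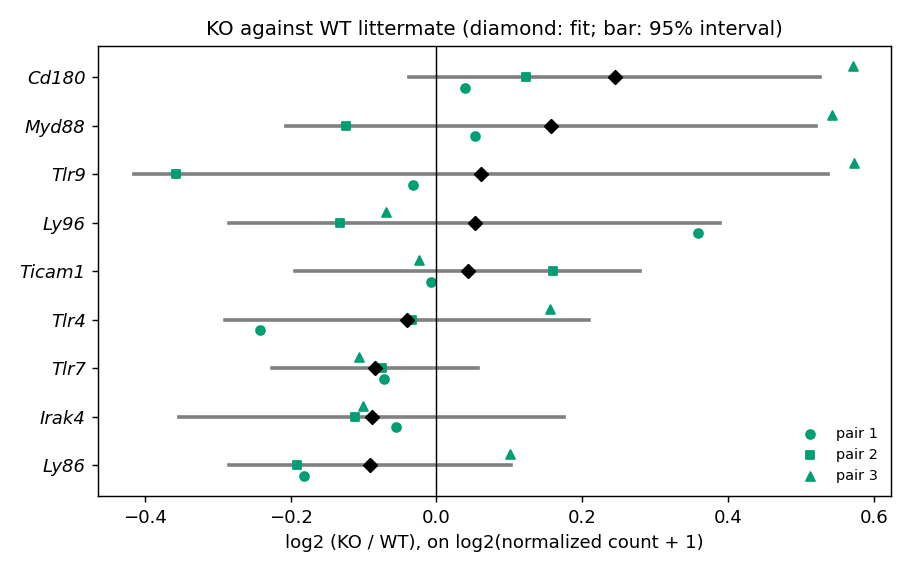
Log2 ratio of KO to WT on the log2(normalized count + 1) scale for the 9 sensing genes tested. Green symbols are the 3 littermate pairs, diamonds the log2 fold change from limma and grey bars its 95% interval. Every interval includes 0, and pair 3 gave the highest ratio for *Cd180*, *Myd88*, *Tlr9*, *Tlr4* and *Ly86*.

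Pair 3 set much of the spread. Its WT library had the fewest fragments (5393558) and the fewest genes detected (18730) of the 6 libraries, and a part of depth in these ratios was not tested. In that pair the KO/WT ratio was 1.49 for *Cd180*, 1.46 for *Myd88* and 1.495 for *Tlr9*, against 1.03, 1.04 and 0.978 in pair 1 and 1.09, 0.917 and 0.779 in pair 2. Without replicate 3, the log2 fold change of *Cd180* was 0.08, that of *Myd88* −0.035 and that of *Tlr9* −0.19. The counts of single libraries also limit these values. *Tlr9* varied over the 6 libraries by 17.2% of its mean where counting alone gives 10.4%, *Irak4* by 5.16% where counting gives 8.83%, and *Cd180* by 20.2% where counting gives 5.04%.

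The libraries differed in transcripts of plasma cell markers, and *Cd180* varied inversely with *Jchain* and *Irf4*. *Jchain*, which encodes the joining chain of IgM and IgA, had 4744, 2171 and 2722 normalized counts in KO and 3555, 2573 and 8096 in WT. The 6 plasma cell markers together summed to 8049 to 15767 in KO and 7906 to 18378 in WT, most of it *Xbp1*, *Jchain* and *Irf4*. *Sdc1* had only 35.5 to 72.2 normalized counts, and *Tnfrsf17* had 4 fragments over all 6 libraries. *Cd180* was lowest in the WT library of pair 3, where *Jchain* was highest, and highest in the KO library of pair 2, where *Jchain* was lowest. Over the 6 libraries the Pearson correlation of the log2 values was −0.95 between *Cd180* and *Jchain*, −0.80 between *Cd180* and *Irf4*, and 0.86 and 0.82 between *Cd180* and the B cell transcription factors *Ebf1* and *Pax5*. Without the WT library of pair 3 the correlation of *Cd180* with *Jchain* was −0.85 (n = 5), and without the 2 libraries farthest from the median of *Jchain* it was −0.95 (n = 4). *Tlr4* had a correlation of 0.0032 with *Jchain* and of −0.11 with *Cd180*, but the first of these rested on the WT library of pair 3, without which it was 0.64 (n = 5), and it was 0.96 without the 2 libraries farthest from the median of *Jchain* (n = 4). These 6 points come as littermate pairs and share their size factors, and a part of plasma cell content in the values of *Cd180* was not tested. The authors included *Jchain* among the mRNAs whose level and decay they compared between KO and WT B cells. Whether its level follows plasma cell content apart from genotype was not tested. *Jchain* itself had a log2 fold change of −0.47, which did not pass the test (adjusted *p* = 0.970 from limma).

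**Figure D4:**
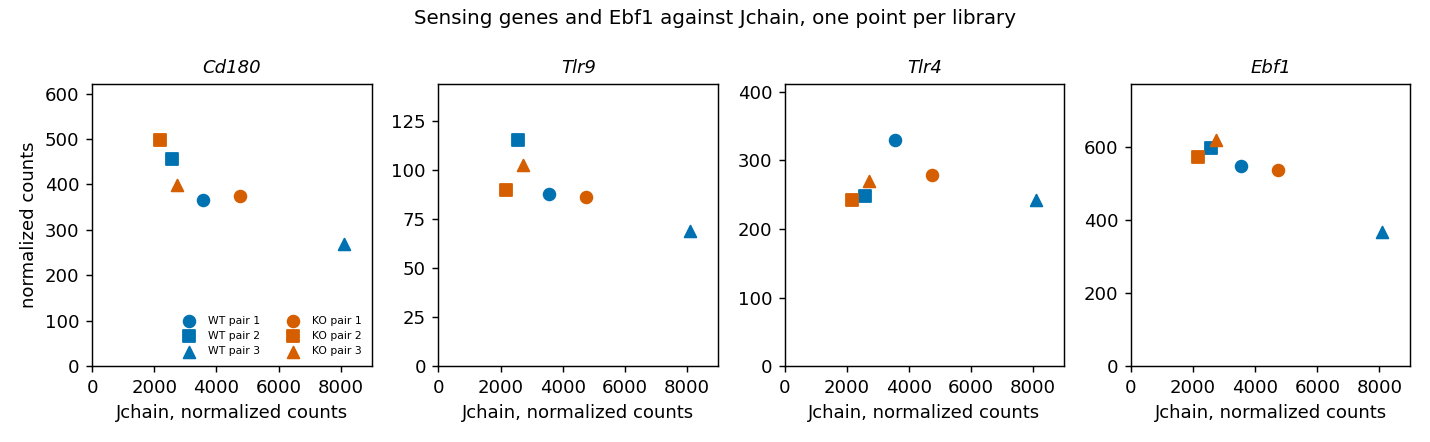
Normalized counts of *Cd180*, *Tlr9*, *Tlr4* and the B cell factor *Ebf1* against those of *Jchain*, with 1 point per library, WT in blue, KO in orange and symbols for the pairs. The WT library of pair 3 (8096 for *Jchain*) has the lowest *Cd180* (268), *Tlr9* (68.6) and *Ebf1* (368), whereas its *Tlr4* value (242) lies at the low end of a range in which the WT library of pair 1 is highest.

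In a set of 9587 genes whose mean was 50 normalized counts or more, the patterns most like that of *Cd180* over the 6 libraries were those of *Txlng* (r = 0.995), *Tmem231* (0.989) and *Hgh1* (0.988), and the most like that of *Tlr4* were *Vps28* (0.999), *Krit1* (0.981) and *Fam50a* (0.981). With 6 points and this many genes, values of this size are a description of rank only.

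Differences between batches were asked in the same fit with the moderated F-test of limma. Of all genes tested, 142 (1.15%) passed an adjusted *p* of 0.05, and 12.5% had an unadjusted *p* under 0.05. None of the 9 sensing genes passed. *Ticam1* had the lowest value (unadjusted *p* = 0.00720, adjusted *p* = 0.180 from limma), with both libraries of pair 2 low, and *Cd180* came next (0.0214, adjusted *p* = 0.293 from limma), with both libraries of pair 2 high.

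Ratios within a library do not depend on how libraries were scaled. The ratio of *Cd180* to *Tlr4* in normalized counts was 1.35, 2.05 and 1.48 in KO and 1.11, 1.84 and 1.11 in WT. It was higher in KO in all 3 pairs, by 0.28 ± 0.13 on the log2 scale (SD, n = 3 pairs, exact two-sided permutation *p* = 0.25). The ratio of *Ly86* to *Cd180* was 2.39, 1.79 and 2.16 in KO and 2.78, 2.22 and 2.99 in WT. It was lower in KO in all 3 pairs, with a log2 difference of −0.34 ± 0.13 (SD, n = 3 pairs, exact two-sided permutation *p* = 0.25). With 3 pairs, 0.25 is the smallest *p* this test can give, and both became 0.75 after Benjamini-Hochberg adjustment over the 6 ratios computed. The other 4 ratios (*Ly86* to *Ly96*, *Ly96* to *Tlr4*, *Tlr7* to *Tlr9* and *Myd88* to *Ticam1*) moved in different directions in the pairs, with exact *p* between 0.75 and 1.

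The rest of the pathway was read from lists chosen by function. Of the 9 other TLR genes, 4 passed the filter, and *Tlr5* and *Tlr11* were at 0 in all libraries. *Tlr1*, a partner of TLR2, was the most abundant with 43.8 normalized counts per kilobase, followed by *Tlr12* with 21.5. Log2 fold changes ran from −0.18 (*Tlr12*) to 0.20 (*Tlr2*), with a median of −0.05. *Tlr3* had 19 fragments in all 6 libraries together, *Tlr13* 9 and *Tlr8* 3.

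Of 8 genes for chaperones, trafficking and LPS transfer, 7 were tested and *Lbp*, the serum protein that binds LPS, was at 0. *Hsp90b1*, which encodes GRP94, the ER chaperone that most TLRs and RP105 need to fold, was the most abundant with 1809.7 normalized counts per kilobase. *Unc93b1*, which carries TLR7 and TLR9 to endosomes, had 851 per kilobase and a log2 fold change of −0.03 (standard error 0.06). *Hsp90b1* had the lowest log2 fold change (−0.42, standard error 0.11, unadjusted *p* = 0.00695, adjusted *p* = 0.849 from limma) and *Cd36* the highest (0.06). *Hsp90b1* was lower in KO in all 3 pairs, with KO/WT ratios of 0.911, 0.745 and 0.611. Its highest value, 10600 normalized counts, was in the WT library of pair 3. Over all genes tested, 13.1% were lower in all 3 pairs and 3.03% were lower at an unadjusted *p* under 0.05 in limma. The median of the list was −0.03.

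Of 25 other adaptors, kinases and transcription factors downstream, 24 were tested and *Sarm1* was below the filter. Their median log2 fold change was 0.06, and 9 had a negative and 15 a positive value. *Irf5*, a transcription factor activated through MyD88, had 438 and *Tbk1*, a kinase downstream of TRIF, 186 normalized counts per kilobase. Log2 fold changes ran from −0.17 (*Ube2n*) to 0.63 (*Ube2v1*), the latter on only 63 fragments. *Tab2*, an adaptor of the kinase TAK1, had the only unadjusted *p* under 0.05 in the list and is named because of that value (log2 fold change 0.18, standard error 0.07, unadjusted *p* = 0.0357, adjusted *p* = 0.970 from limma). Over all genes tested, 4.70% had an unadjusted *p* under 0.05. KO values lay above all WT values for *Tab2* and *Irf3*, and the groups did not overlap for 6.83% of all genes tested.

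Of 14 negative regulators, 13 were tested, with a median log2 fold change of 0.07, 5 negative and 8 positive values and none with an unadjusted *p* under 0.05. *Tnfaip3*, which encodes the ubiquitin-editing enzyme A20, had 301 and *Inpp5d*, which encodes the phosphatase SHIP1, 200.02 normalized counts per kilobase. The extremes were *Socs1* (−0.10) and *Otud7b* (0.31). In none of these lists did a gene pass an adjusted *p* of 0.05. Of 7 dendritic cell markers, *Clec9a* and *Siglech* were at 0 and *Xcr1*, *Cd209a* and *Itgax* at no more than 6.02 normalized counts, whereas *Flt3* (294 to 798) and *Zbtb46* (173 to 239) were measured. The 7 markers summed to 614 to 1005 in KO and 473 to 703 in WT, nearly all of it from these 2 genes, and their part in the values of the sensing genes was not tested. *Flt3* was higher in KO in all 3 pairs, as were 11.7% of all genes tested. Its log2 fold change was 0.47 (unadjusted *p* = 0.0131, adjusted *p* = 0.930 from limma). Of the 8 B cell markers, *Cd79a* was lower in all 3 pairs, as were 13.1%. Its log2 fold change was −0.21 (unadjusted *p* = 0.0387, adjusted *p* = 0.970 from limma), and its groups did not overlap, as for 6.83%. At an unadjusted *p* under 0.05, 1.67% of all genes tested were higher and 3.03% lower. *Siglech* defines plasmacytoid dendritic cells, which also express *Tlr7* and *Tlr9*.

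**Figure D5:**
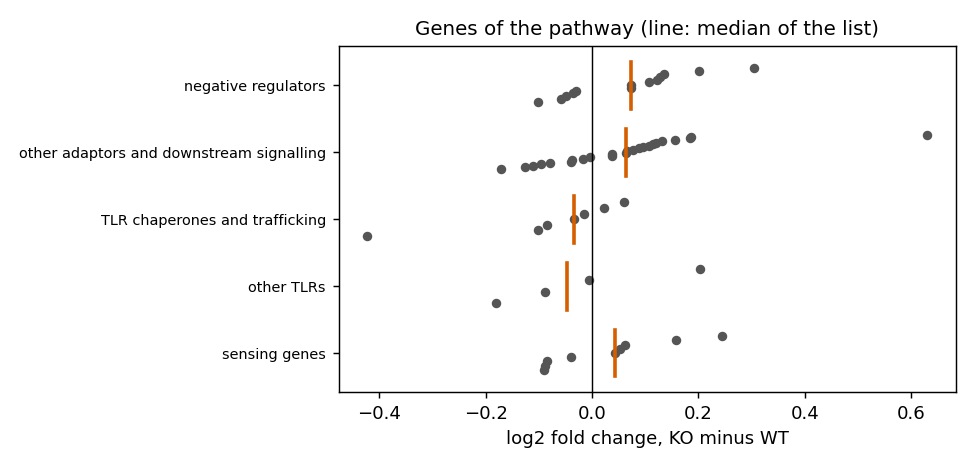
Log2 fold change (KO minus WT) of each gene tested in the sensing list and in 4 lists of the pathway, with an orange line at the median of each list. Medians lie between −0.05 and 0.07, and the most distant points are *Hsp90b1* (−0.42) and *Ube2v1* (0.63).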

How the data were processed

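Libraries were ribosomal RNA-depleted, strand-specific and paired-end. The authors trimmed reads with cutadapt, aligned them with STAR 2.6.1a to GRCm38 (mm10), counted fragments on the exons of Gencode genes by strand with featureCounts (Subread 1.6.3), and scaled each library by its DESeq2 size factor. What was deposited is this table of normalized counts, a signal with 1 step per library. Fragments were recovered from it, and 100% of the values other than 0 came out whole (tolerance 0.01), with a median depth of 6607728.5 fragments. Scaling to equal medians hides a change shared by most transcripts. Because multi-mapping fragments were filtered out, near-identical copies lose counts. Gencode vM21 (GRCm38) gave symbols, positions and exon lengths for 54409 of 54446 identifiers. The release the authors counted with was older and may differ in some exons.

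KO and WT were compared with limma 3.58.1 in R 4.3.3 (lmFit, eBayes with trend) on log2(normalized count + 1) for genes averaging 10 or more. Genotype and batch were the terms, tests were two-sided and *p*-values were adjusted after Benjamini and Hochberg. On this scale the change of low genes is understated. Pairs are littermates, which is what pairs the samples. Deviations from the group means correlated over genes with r of 0.33, 0.68 and 0.17 within pairs 1, 2 and 3, but also with 0.26 and 0.28 between libraries of pairs 1 and 3, so they set only pair 2 apart. Recovered fragments were also tested with edgeR 4.0.16 and DESeq2 1.42.0, and all fits were tested on simulated data. Other alternatives were the pseudocount, filter, scaling, length, block and replicates left out. The limma *p*-values rest on the spread between these littermate pairs, moderated toward a trend fitted over all genes tested. A standard error can thus differ from the spread of a gene's own pairs. For *Tlr7* the SD over the 3 pairs was 0.019 on the log2 scale and the standard error 0.059. Counting errors and the limit of 3 fragments cover counting only. From each pathway list, the genes with the extreme log2 fold changes and the 2 most abundant per kilobase were named. For *Cd180* and *Tlr4*, the 3 genes with the highest correlation were named. *Tab2*, *Irf3*, *Flt3*, *Cd79a*, *Jchain*, *Irf4*, *Ebf1* and *Pax5* were picked with their values known, and the motifs with the expression values known. The genes and lists were chosen with earlier results of these data known.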

Additional observations from a re-analysis of the deposited data

How the results depend on the processing

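The sensing genes gave 108 log2 fold changes under alternatives, of which 103 had the direction reported and none passed the threshold. The 5 that changed direction came from leaving out 1 replicate. Over those fits the values ran from −0.14 to 0.061 for *Tlr4*, −0.10 to 0.14 for *Ly96*, −0.035 to 0.30 for *Myd88*, −0.016 to 0.076 for *Ticam1* and −0.19 to 0.27 for *Tlr9*, while *Ly86* ran from −0.19 to −0.041 and *Cd180* from 0.081 to 0.35 with no change of direction. The lowest adjusted *p* of any sensing gene over the alternatives was 0.528 (*Cd180*). The fit without the replicate block changed no call (*Cd180* 0.24, *Tlr4* −0.04). Over all genes, DESeq2 gave 22 lower and 1 higher against 0 and 0 in limma, and leaving out 1 replicate gave 0 to 168 lower and 0 to 3 higher, with 168 lower without replicate 1. The number of genes that differed between batches was 142, and it was 51 without a filter, 247 in DESeq2 and 5 to 728 with 1 replicate left out (5 without replicate 2 and 728 without replicate 3), while no sensing gene was called in any of these. The cause was not tested. The log2 ratio differences with 1 replicate left out ran from −0.30 to 0.056 for *Ly86* to *Ly96*, −0.16 to 0.25 for *Ly96* to *Tlr4*, −0.36 to 0.12 for *Tlr7* to *Tlr9* and −0.11 to 0.31 for *Myd88* to *Ticam1*. By the longest annotated transcript the ranks per kilobase were 1 for *Ly86*, 2 for *Tlr7*, 5 for *Tlr4*, 6 for *Ticam1*, 7 for *Myd88*, 8 for *Irak4* and 9 for *Tlr9*, and by the longest coding transcript 1, 2, 6, 7, 5, 8 and 9 in the same order of genes. With 1 replicate left out the ranks moved between 5 and 6 for *Myd88* and *Ticam1* and between 8 and 9 for *Tlr9* and *Irak4*. The depth of these libraries limits *Cd14*, *Tlr8* and *Tlr13*, whose few fragments allow no comparison.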
